A study of Homo sapiens with 9 samples.

Results

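The 10 genes studied act in calcium signalling through phospholipase C, calcineurin and NFAT, and were read in MDA-MB435S cells, a metastatic melanoma line: NFATC1, NFATC2, NFATC3, NFATC4, NFAT5, RCAN1, RCAN2, PPP3CA, PLCB1 and PLCB4. They were read by 33 probe sets, each annotated to 1 of the 10 genes alone, of 54613 probe sets on the array. The genes were chosen by their measured values, because NFATC2 stood far higher and PLCB4 far lower in WWOX-expressing cells. The differences between WWOX cells and the other groups are therefore given for these genes as a description, without a test. RNA was hybridized to 9 Affymetrix U133 Plus 2.0 arrays, 3 for each of 3 groups. WWOX cells expressed wild-type WWOX, a WW-domain tumor suppressor, WFPA cells the WWOX-WFPA mutant, in which the first WW domain is disrupted, and EV cells carried the empty vector. All were stable clones grown in DMEM with serum and selected with G418. The number of clones per group is not given in the sources used here, so that construct and clone cannot be told apart. Nothing says that the 3 arrays of a group came from separate cultures, and p-values measure only the spread between arrays.

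The probe sets for WWOX were read first. The brightest had log2 intensities of 10.80, 10.83 and 10.34 in WWOX cells, 10.35, 10.12 and 10.25 in WFPA cells and 9.26, 8.80 and 8.74 in EV cells. WWOX cells lay above EV cells by 1.72 (adjusted p = 0.000295, limma with Benjamini-Hochberg adjustment), while WWOX and WFPA arrays overlapped. In the labels, wild-type WWOX is entered as the vector of the EV arrays, whose names hold both EV and wox+, and no WWOX is entered as that of the WWOX arrays. The array names were used for the groups, and the 5 WWOX probe sets did not all run alike. A dimmer one, 221147_x_at, had means of 8.18, 7.64 and 4.49 in WWOX, WFPA and EV cells, and 219077_s_at had 5.13, 5.50 and 3.91 in the same order, with the lowest mean in EV cells at these as at the brightest. At 223747_x_at the means were 8.87, 8.38 and 9.11 in WWOX, WFPA and EV cells, with WFPA cells lower than EV cells by a difference of -0.73 (limma adjusted p = 0.0433), and at 210695_s_at they were 6.11, 5.98 and 5.98. The array medians lay between 6.03 and 6.05 and the lower quartiles between 4.23 and 4.34. No background level is given in the values, so that where a level lies under the lower quartile the size of its difference is uncertain.

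Phospholipase C beta enzymes, switched on by receptors coupled to Gq, split a membrane lipid into IP3 and diacylglycerol. IP3 releases calcium from the endoplasmic reticulum, and calcium bound to calmodulin turns on the phosphatase calcineurin. Calcineurin removes phosphate from NFATC1 to NFATC4, which then enter the nucleus and switch genes on, often together with AP-1. The pathway is best known from T cells, and it acts in many other cells, tumor cells among them. The mRNA levels read here do not measure the activity of the phosphatase or the place of NFAT in the cell.

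Promoter sequences came from a table of RefSeq promoters (GRCh38.p14), from which 17 windows of 250 bases before a transcription start were used for 6 of the 10 genes. Those of PPP3CA, PLCB1, PLCB4 and NFAT5 were not analysed here. The window of NFATC2 at chr20:51562840-51563089 (minus strand) is shown because NFATC2 differed most between the groups, and that of RCAN1 at chr21:34526823-34527072 (minus strand) because RCAN1 is a known target of calcineurin and NFAT. Capitals mark GGAAA, the core that NFAT proteins bind, on either strand (TTTCC on the printed strand), and TGANTCA, the AP-1 motif. The motifs share no bases with each other.
NFATC2: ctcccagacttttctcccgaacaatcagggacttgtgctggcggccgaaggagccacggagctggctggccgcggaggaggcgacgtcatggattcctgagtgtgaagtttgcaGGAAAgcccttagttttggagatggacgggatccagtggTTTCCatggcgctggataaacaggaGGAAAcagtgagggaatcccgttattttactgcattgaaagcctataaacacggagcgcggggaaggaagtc
RCAN1: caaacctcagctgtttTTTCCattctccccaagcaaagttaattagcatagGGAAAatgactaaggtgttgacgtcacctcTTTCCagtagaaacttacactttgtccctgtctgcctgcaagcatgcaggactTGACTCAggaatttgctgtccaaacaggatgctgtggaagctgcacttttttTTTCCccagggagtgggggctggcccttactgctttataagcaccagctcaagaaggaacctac
The NFATC2 window held 3 copies of GGAAA and no TGANTCA, and the other NFATC2 window held neither motif. The RCAN1 window shown held 4 copies of GGAAA and 1 of TGANTCA, the most among the RCAN1 windows used. The other RCAN1 windows held no GGAAA, and only that at chr21:34525468-34525717 held TGANTCA, with 1 copy. The first motif was found in 6 of the 17 windows, against 55.6% of 35116 windows of the same length over all genes, and the second in 3 of 17, against 6.57%.

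NFATC2 was the gene with the largest difference among the 10. This transcription factor, also called NFAT1, is the main NFAT of resting T cells. Its brightest probe set (226991_at) read 10.68, 10.84 and 10.45 on the WWOX arrays, 7.38, 7.61 and 7.39 on the WFPA arrays and 6.54, 5.78 and 6.02 on the EV arrays. The groups did not overlap and stood in the order WWOX, WFPA, EV. The mean log2 intensity was 10.65 ± 0.196 in WWOX cells, 7.46 ± 0.133 in WFPA cells and 6.11 ± 0.388 in EV cells (SD, n = 3 each). WWOX cells thus stood above EV cells by 4.54 (standard error 0.189, 23.3-fold) and above WFPA cells by 3.20 (9.16-fold). In bulk RNA, more cells with NFATC2 and more NFATC2 RNA per cell cannot be told apart.

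A second NFATC2 probe set, 228442_at, gave the same order. It read 8.86, 9.42 and 9.53 on the WWOX arrays, 6.20, 5.93 and 6.27 on the WFPA arrays and 5.28, 5.71 and 5.41 on the EV arrays. WWOX cells stood above EV cells by 3.81 (standard error 0.191, 14.0-fold) and above WFPA cells by 3.14 (8.84-fold). Across the 9 arrays, which hold 3 groups, these probe sets correlated with r = 0.97. The other NFATC2 probe sets did not share the size of this difference. At 224542_s_at the level was 7.42, 7.47 and 7.67 in WWOX cells, 7.27, 7.45 and 7.25 in WFPA cells and 7.53, 7.45 and 7.50 in EV cells, with overlap of all groups and a difference between WWOX and EV of 0.03. At 231801_at the level was 5.15, 5.32 and 5.14 in WWOX cells, 4.95, 4.92 and 5.03 in WFPA cells and 4.95, 4.99 and 4.97 in EV cells. The WWOX arrays lay above the 6 others there, by only 0.23 over EV and 0.24 over WFPA. Which NFATC2 transcripts each probe set reads was not examined.

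PLCB4, a phospholipase C beta enzyme known for its part in the retina and cerebellum, went the other way. Its brighter probe set (203895_at) read 3.75, 3.70 and 3.73 on the WWOX arrays, 6.82, 6.18 and 5.96 on the WFPA arrays and 6.51, 6.94 and 6.76 on the EV arrays. The WWOX arrays lay below the lower quartile and below all 6 others, and WFPA and EV arrays overlapped. The mean was 3.73 ± 0.0242 in WWOX cells, 6.32 ± 0.445 in WFPA cells and 6.74 ± 0.217 in EV cells (SD, n = 3 each). WWOX cells stood below both, with a log2 difference of -3.01 to EV cells (standard error 0.204, 8.07-fold) and -2.59 to WFPA cells (6.03-fold). At the dimmer probe set, 203896_s_at, the level was 4.04, 4.03 and 4.54 in WWOX cells, 4.64, 4.81 and 4.98 in WFPA cells and 5.13, 4.94 and 5.51 in EV cells. The WWOX arrays again lay below the 6 others, with a difference of -0.99 to EV (standard error 0.187) and -0.61 to WFPA. Over the 9 arrays PLCB4 at 203895_at and NFATC2 at 226991_at had r = -0.97, which mainly restates the difference between groups for which they were chosen.

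PLCB1, the neighbour of PLCB4 on chromosome 20 and an enzyme widely found in brain, stood apart in WWOX cells at 1 of its 3 probe sets, where it was higher. The probe set 213222_at read 9.23, 8.96 and 8.68 on the WWOX arrays, 7.77, 7.86 and 7.81 on the WFPA arrays and 8.02, 7.57 and 7.82 on the EV arrays. The WWOX arrays lay above all 6 others, and WFPA and EV arrays overlapped. WWOX cells stood above EV cells by 1.15 (standard error 0.154, 2.22-fold) and above WFPA cells by 1.14 (2.20-fold). At 211925_s_at the differences of WWOX cells were 0.06 to EV and -0.01 to WFPA, and at 215687_x_at they were 0.31 and 0.28. At its brightest probe set PLCB1 thus stood apart in WWOX cells in the direction opposite to PLCB4.

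**Figure D1:**
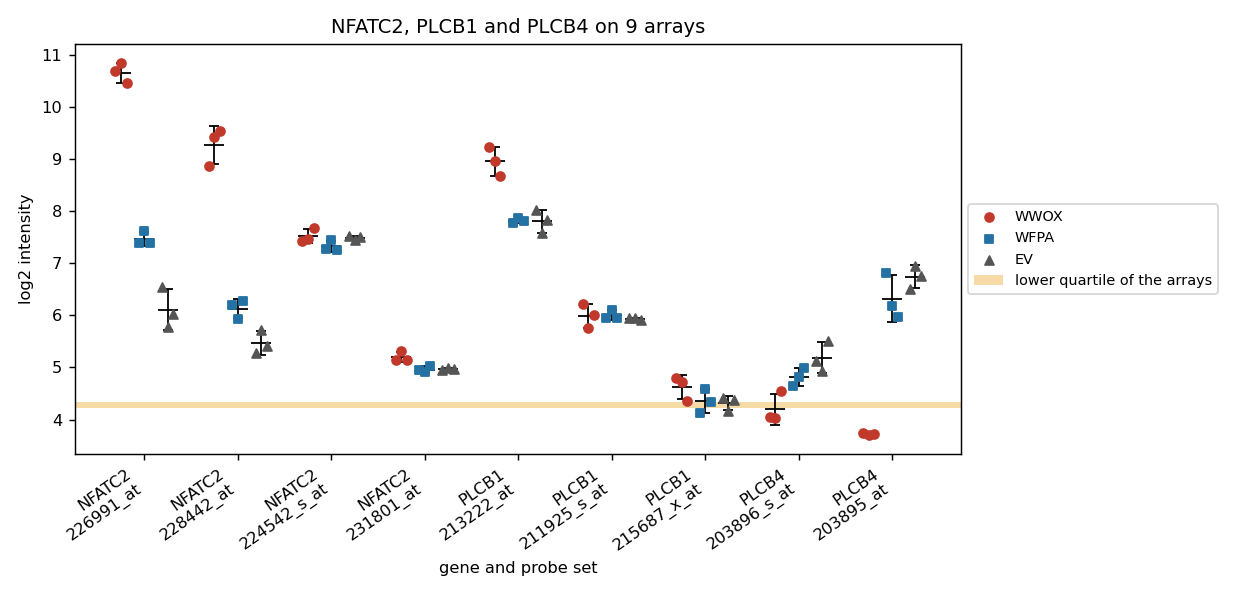
Log2 intensity (y axis) at the probe sets of NFATC2, PLCB1 and PLCB4 (x axis), 1 point per array in WWOX, WFPA and EV cells, with black bars for the mean and SD (n = 3) and the range of the lower quartiles of the arrays as a band. WWOX arrays sit between 10.45 and 10.84 at the brightest NFATC2 probe set and between 3.70 and 3.75, under the band, at the brighter PLCB4 probe set.

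PPP3CA, which encodes the calcineurin A alpha catalytic subunit, had 3 probe sets, all above the array medians. At 202425_x_at the mean was 11.06 ± 0.447 in WWOX cells, 11.29 ± 0.171 in WFPA cells and 11.53 ± 0.247 in EV cells (SD, n = 3 each), and all groups overlapped. At 202457_s_at the means were 10.64, 10.83 and 10.99 in WWOX, WFPA and EV cells, again with overlap. Only at 202429_s_at did EV cells stand apart. It read 10.08, 10.30 and 10.20 on the WWOX arrays, 10.14, 10.23 and 10.40 on the WFPA arrays and 10.65, 10.68 and 10.53 on the EV arrays. Over the 3 probe sets the difference of WWOX cells to EV cells lay between -0.47 and -0.35, and to WFPA cells between -0.22 and -0.07.

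RCAN1 and RCAN2 encode regulators that bind and inhibit calcineurin. The brightest RCAN1 probe set, 208370_s_at, read 12.89, 13.03 and 12.97 on the WWOX arrays, 13.02, 13.03 and 13.06 on the WFPA arrays and 12.65, 12.65 and 12.54 on the EV arrays. WWOX and WFPA arrays overlapped and lay above all EV arrays. At 215253_s_at the level was 8.29, 8.44 and 8.04 in WWOX cells, 8.84, 8.73 and 8.96 in WFPA cells and 8.03, 7.99 and 7.92 in EV cells. WFPA cells were highest there, and WWOX cells lay between, with differences of 0.28 to EV and -0.59 to WFPA. The remaining dim probe set, 215254_at, overlapped in all groups, with means of 4.94, 4.70 and 4.54 in WWOX, WFPA and EV cells. RCAN2 lay under the lower quartile on every array, with means of 3.50, 3.58 and 3.50 in WWOX, WFPA and EV cells.

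NFAT5, the member of the family that answers to salt and osmotic stress and is not a substrate of calcineurin, stood lower in WWOX cells at each of its 3 probe sets. The brightest, 224984_at, read 8.84, 8.62 and 8.56 on the WWOX arrays, 8.94, 9.12 and 9.01 on the WFPA arrays and 9.06, 9.11 and 9.31 on the EV arrays. The WWOX arrays lay below all 6 others, with differences of -0.49 to EV (standard error 0.11) and -0.35 to WFPA. At 215092_s_at the level was 6.61, 5.95 and 6.01 in WWOX cells, 6.57, 6.62 and 6.38 in WFPA cells and 7.44, 7.73 and 7.20 in EV cells. There the EV arrays stood above all others, while WWOX and WFPA arrays overlapped. The difference of WWOX cells was -1.27 to EV (standard error 0.194, 2.41-fold) and -0.34 to WFPA. The dimmest, 208003_s_at, had means of 3.25, 3.72 and 4.05 in WWOX, WFPA and EV cells and lay under the lower quartile on every array.

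**Figure D2:**
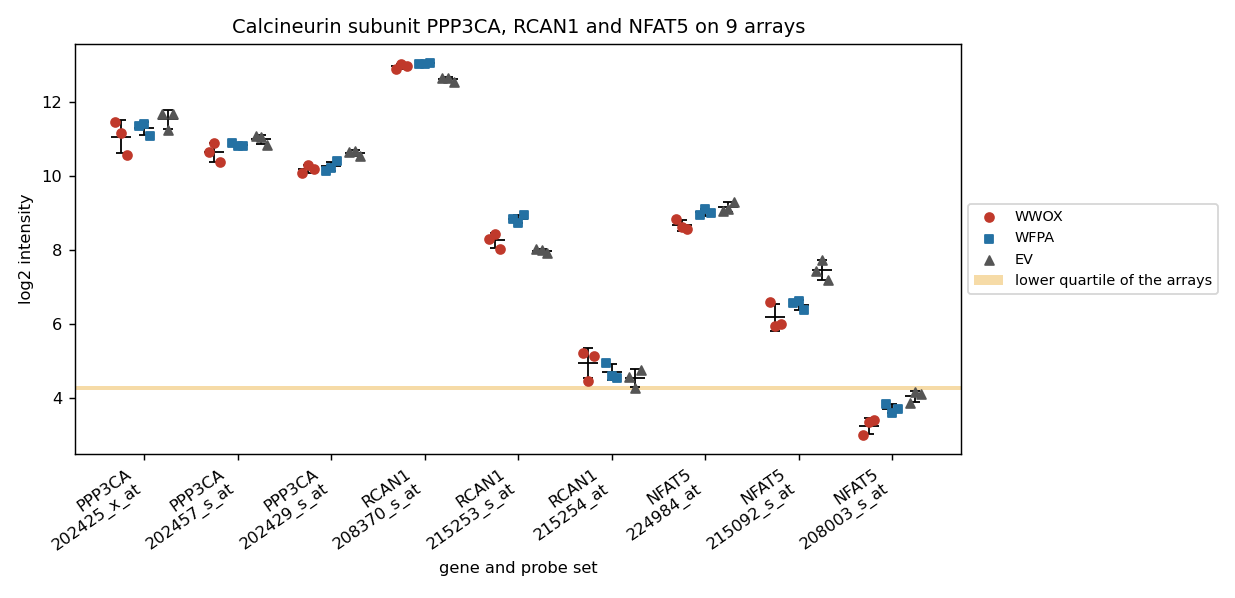
Log2 intensity (y axis) at the probe sets of PPP3CA, RCAN1 and NFAT5 (x axis), 1 point per array in WWOX, WFPA and EV cells, with black bars for the mean and SD (n = 3) and the range of the lower quartiles of the arrays as a band. At NFAT5 215092_s_at EV arrays sit between 7.20 and 7.73, above all arrays of WWOX and WFPA cells, and at RCAN1 215253_s_at WFPA arrays sit highest, between 8.73 and 8.96.

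NFATC1 and NFATC4 showed no probe set with the WWOX arrays apart from all 6 others. NFATC1, also called NFAT2, the main NFAT of osteoclasts, had a mean of 7.64 ± 0.243 in WWOX cells, 7.37 ± 0.0122 in WFPA cells and 7.55 ± 0.0665 in EV cells (SD, n = 3 each) at its brightest probe set, 210161_at. Over its 5 probe sets the difference of WWOX cells was 0.00 to 0.33 to EV and 0.08 to 0.27 to WFPA. NFATC4, also called NFAT3, had a mean of 6.37 in WWOX cells, 6.21 in WFPA cells and 6.35 in EV cells at its brightest probe set, and its other probe sets lay near the lower quartile.

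NFATC3, also called NFAT4, had 6 probe sets, which disagreed in the size of their differences. At the brightest, 225139_at, the means were 9.27, 9.26 and 9.39 in WWOX, WFPA and EV cells, with overlap. The probe set 225137_at read 5.88, 5.60 and 5.64 on the WWOX arrays, 6.53, 6.28 and 6.46 on the WFPA arrays and 6.29, 6.39 and 6.21 on the EV arrays. Here the WWOX arrays lay below the 6 others, with differences of -0.59 to EV and -0.72 to WFPA. At 210555_s_at the level was 6.75, 6.15 and 6.04 in WWOX cells, 6.74, 7.51 and 7.16 in WFPA cells and 6.92, 7.02 and 6.87 in EV cells, with WWOX replicate 1 within the WFPA range. At 225141_at the differences of WWOX cells were -0.21 to EV and -0.20 to WFPA, with overlap. At 207416_s_at they were -0.36 and -0.42, with the WWOX arrays below the EV arrays and overlapping the WFPA arrays. The probe set 210556_at lay under the lower quartile on every array.

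Over all 33 probe sets, 3 stood at least 2-fold higher in WWOX than in EV cells, against 1.79% of all probe sets, and these were NFATC2 226991_at and 228442_at and PLCB1 213222_at. PLCB4 203895_at and NFAT5 215092_s_at made up the 2 that stood at least 2-fold lower, against 1.86% of all probe sets. Relative to WFPA cells the same 3 probe sets stood at least 2-fold higher (1.64% of all) and PLCB4 203895_at alone at least 2-fold lower (2.69% of all). Both comparisons share the WWOX arrays, and nothing is read from these shares, since the genes were chosen by their level in WWOX cells. The median difference of the 33 was 0.00 to EV and -0.01 to WFPA, beside 0.02 and 0.05 over all probe sets. The median size without sign was 0.33 to EV and 0.24 to WFPA, beside 0.17 and 0.20 over all probe sets. The WWOX arrays lay above the 6 others at 4 of the 33 (8.19% of all probe sets), below them at 5 (8.87% of all) and overlapped at 24. Ranked by the difference of WWOX cells to the mean of EV and WFPA cells among 19775 genes, each read by its brightest probe set, NFATC2 had rank 25 among the higher and PLCB4 rank 22 among the lower. PLCB1 had rank 310 among the higher.

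**Figure D3:**
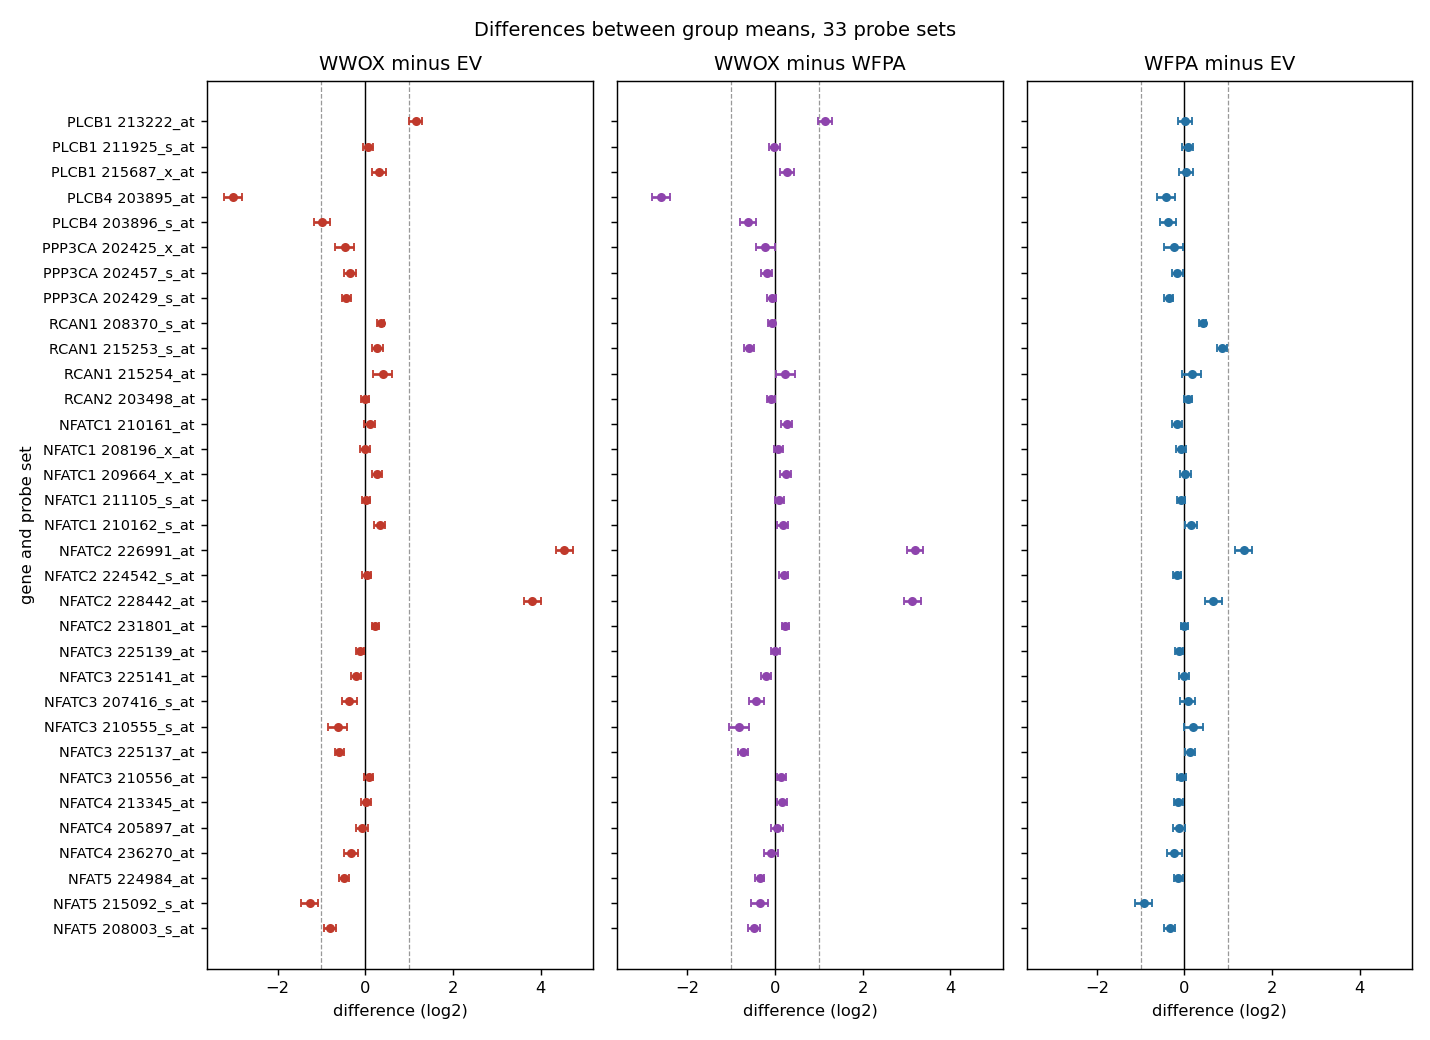
Difference between group means (x axis, log2) at the 33 probe sets (y axis) for WWOX minus EV, WWOX minus WFPA and WFPA minus EV, with bars of 1 standard error and dashed lines at 2-fold. NFATC2 stands at 4.54 and 3.81 and PLCB4 203895_at at -3.01 in WWOX minus EV, and 1 probe set, NFATC2 226991_at, passes 2-fold in WFPA minus EV.

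The comparison of WFPA with EV cells does not use the level of the WWOX arrays, and it was tested. The spread was estimated from all 9 arrays. Choosing the genes also drew on the arrays that WWOX cells were compared with, so that the test is not free of that choice. A probe set was called at an adjusted p under 0.05, over all probe sets, and at least 2-fold. Of the 33 probe sets 1 was called higher in WFPA cells, against 1.26% of all probe sets, and 0 were called lower, against 0.474% of all. The unadjusted p was under 0.05 at 7 of the 33, beside 19.1% of all probe sets. NFATC2 226991_at was the one called, 1.35 higher in WFPA cells (standard error 0.189, 2.55-fold, limma adjusted p = 0.0036), and Bonferroni adjustment or a limit of 4-fold, both named in the study's methods, left 0 calls. The probe set 228442_at had a difference of 0.66 with an adjusted p of 0.0804 from limma, although the WFPA arrays lay above all EV arrays. At 224542_s_at and 231801_at the differences were -0.17 and 0.00 (limma adjusted p = 0.413 and 0.987).

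An adjusted p under 0.05 without regard to fold was reached by 4 of the 33, beside 6.64% of all probe sets. Next to NFATC2 these were 2 of the 3 RCAN1 probe sets and NFAT5 215092_s_at. WFPA cells exceeded EV cells in RCAN1 by 0.86 at 215253_s_at (standard error 0.116, 1.82-fold, limma adjusted p = 0.00296) and by 0.42 at 208370_s_at (standard error 0.0814, 1.34-fold, limma adjusted p = 0.0161). NFAT5 215092_s_at was lower in WFPA cells, with a difference of -0.93 (standard error 0.194, 1.91-fold, limma adjusted p = 0.0226), and without EV replicate 3 it was called at -1.06. NFAT5 224984_at had a difference of -0.14 (limma adjusted p = 0.569), so that the NFAT5 probe sets did not share this result. For PLCB4 the differences were -0.42 at 203895_at and -0.38 at 203896_s_at (limma adjusted p = 0.311 and 0.317). PLCB1 213222_at had a difference of 0.01 (standard error 0.154, limma adjusted p = 0.983), and PPP3CA 202429_s_at one of -0.36 (limma adjusted p = 0.0793). The median difference of the 33 was -0.07, beside -0.04 over all probe sets, and the median size was 0.15, beside 0.14.

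The rest of the pathway was taken from a list of 179 other genes in 11 roles, of which 164 were read. The list was made with earlier results of these data known, so that its adjusted p-values are not free of that choice. In WWOX cells against the mean of EV and WFPA cells, 8 were called higher (1.94% of all genes) and 8 lower (2.06% of all genes), with a median difference of 0.08 beside 0.04 over all genes. In WFPA against EV cells 2 were called higher (1.54% of all genes) and 3 lower (0.693% of all genes). The counts by role that follow are to be read beside these shares. The 4 other calcineurin subunits, 8 kinases of the calmodulin-dependent cascade, 11 genes that hold NFAT back (kinases of the DYRK, GSK3 and casein kinase families, with HOMER2, HOMER3 and LRRK2) and 22 genes of calcium stores (IP3 receptors, store-operated entry, calcium pumps and inositol phosphate enzymes) held no called gene in either comparison. The catalytic subunit PPP3CB read 10.50, 10.62 and 10.68 in WWOX cells, 11.24, 11.29 and 10.99 in WFPA cells and 11.38, 11.28 and 11.15 in EV cells. It was lower in WWOX cells without reaching 2-fold, with a difference of -0.62 (standard error 0.0961, limma adjusted p = 0.00261). The regulatory subunit PPP3R1 had a difference of -0.23 (limma adjusted p = 0.314). PPP3CC, named after its values were seen, was not called at its brightest probe set, while 213950_s_at had a difference of -1.27 between WFPA and EV cells (limma adjusted p = 0.0017).

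Among 11 calcineurin inhibitors and anchors RCAN3, another gene of the RCAN family, was called. It read 9.94, 10.27 and 10.17 in WWOX cells, 8.87, 8.98 and 9.04 in WFPA cells and 9.13, 9.20 and 9.25 in EV cells, and was 1.05 higher in WWOX cells (standard error 0.0908, limma adjusted p = 8.34e-05). Its dimmer probe sets had differences of 0.38 and -0.15 and were not called. Leaving out WWOX replicate 2 took RCAN3 to 0.98, just under 2-fold.

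Of 15 other phospholipase C genes, PLCXD3 and PLCL2 were called. PLCXD3, a phospholipase C-like gene with only the X domain, was low in both groups that carried a WWOX construct. It read 5.34, 6.33 and 5.82 in WWOX cells, 5.74, 5.89 and 6.19 in WFPA cells and 9.51, 9.62 and 9.45 in EV cells. In WFPA against EV cells it fell by 3.58 (standard error 0.224, limma adjusted p = 3.86e-05), and in WWOX cells against the mean of both it fell by 1.91 (limma adjusted p = 0.00023), with a difference between WWOX and WFPA of -0.11 (limma adjusted p = 0.765). PLCL2, a relative without catalytic activity, rose in WFPA cells. It read 5.77, 5.79 and 5.41 in WWOX cells, 6.96, 7.20 and 7.01 in WFPA cells and 5.52, 5.01 and 5.49 in EV cells, a difference between WFPA and EV of 1.71 (standard error 0.162, limma adjusted p = 0.000417), while WWOX and EV cells differed by 0.31 (limma adjusted p = 0.269). Of the dimmer PLCL2 probe sets 1 was called between WFPA and EV cells, at 1.23, and the other had a difference of -0.04. PLCB3, the beta enzyme of many tissues, had a difference of -0.01 in WWOX cells (limma adjusted p = 0.939).

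Upstream, the G protein subunits GNAQ and GNA11 were not called, with differences of 0.13 and 0.02 in WWOX cells (limma adjusted p = 0.301 and 0.911). RGS2 and RGS4, which speed the switching off of Gq, both rose. RGS4 read 8.13, 8.19 and 7.72 in WWOX cells, 5.21, 5.50 and 4.89 in WFPA cells and 6.93, 6.05 and 6.62 in EV cells. It was 2.15 higher in WWOX cells (standard error 0.209, limma adjusted p = 0.000174), and in WFPA relative to EV cells it fell by 1.33 (limma adjusted p = 0.0119), a call that was lost at an adjusted p of 0.0519 without WFPA replicate 3. The dimmer RGS4 probe sets had differences of 1.16 (called) and 0.36 in WWOX cells, and neither was called between WFPA and EV cells. RGS2 read 5.45, 5.72 and 6.57 in WWOX cells, 4.80, 4.78 and 4.37 in WFPA cells and 4.04, 4.80 and 4.27 in EV cells, 1.40 higher in WWOX cells (standard error 0.256, limma adjusted p = 0.00605).

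Of 32 receptors that couple to Gq, 4 were called. The thromboxane receptor TBXA2R and the sphingosine 1-phosphate receptor S1PR2 rose in WWOX cells, by 1.21 (standard error 0.0703, limma adjusted p = 6.97e-06) and 1.23 (standard error 0.128, limma adjusted p = 0.000266). TBXA2R had means of 11.86, 10.32 and 10.97 in WWOX, WFPA and EV cells. It stood above EV cells by 0.89 in WWOX cells, under 2-fold, and WFPA cells differed from EV cells by -0.65 (limma adjusted p = 0.00191). Against the mean of EV and WFPA cells, 1 of the 3 dimmer TBXA2R probe sets was called, at 1.07, and the others had differences of 0.57 and 0.26. A dimmer S1PR2 probe set had a difference of -0.04. The muscarinic receptor CHRM3 fell by 1.56 in WWOX cells (standard error 0.13, limma adjusted p = 6.69e-05) at its brightest probe set, and its 5 others were not called. GRPR, the receptor of gastrin-releasing peptide, read 5.06, 4.78 and 4.69 in WWOX cells, 4.68, 4.89 and 4.50 in WFPA cells and 6.38, 6.39 and 6.11 in EV cells, and in WFPA against EV cells it fell by 1.60 (standard error 0.141, limma adjusted p = 0.000292).

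Of 5 TRPC genes, which encode calcium-permeable channels opened downstream of phospholipase C, TRPC4 was called. It read 8.21, 8.05 and 7.34 in WWOX cells, 10.35, 10.35 and 10.35 in WFPA cells and 10.81, 11.02 and 11.02 in EV cells. In WWOX cells TRPC4 fell by 2.78 (standard error 0.171, limma adjusted p = 9.81e-06), and its 4 probe sets had differences of -3.12 to -2.60. Like PLCB4, TRPC4 had all its WWOX arrays below the 6 others.

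The diacylglycerol branch had 3 of 21 genes called in WWOX cells. PRKCE, a protein kinase C that diacylglycerol switches on, fell by 1.42 (standard error 0.121, limma adjusted p = 7.63e-05), with means of 7.87 in WWOX cells, 9.88 in WFPA cells and 8.71 in EV cells. PRKCE also rose in WFPA relative to EV cells, by 1.16 (limma adjusted p = 0.00156). Its 3 dimmer probe sets were not called in either comparison, with differences of -0.20, 0.02 and 0.14 in WWOX cells. DGKA, a kinase that uses up diacylglycerol, fell by 1.25 (standard error 0.18, limma adjusted p = 0.00178), and its dimmer probe set had a difference of -0.85, under 2-fold. RASGRP3, a Ras activator that binds diacylglycerol, rose by 1.12 (standard error 0.118, limma adjusted p = 0.000291), and its dimmer probe set had a difference of -0.11.

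Of 24 genes known as NFAT targets in one cell type or another, 2 rose and 3 fell in WWOX cells. Over all genes 1.94% were called higher and 2.06% lower. Of the 24, none was called between WFPA and EV cells. IRF4, a transcription factor of lymphocytes and pigment cells, read 8.47, 8.75 and 8.0 in WWOX cells, 5.48, 5.33 and 5.29 in WFPA cells and 5.07, 5.12 and 5.34 in EV cells. It rose by 3.14 (standard error 0.152, limma adjusted p = 2.4e-06), while its dimmer probe sets had differences of 0.43 and 0.01 and were not called. ENPP2, which encodes autotaxin, a secreted enzyme that makes lysophosphatidic acid, read 9.27, 9.18 and 9.02 in WWOX cells, 6.80, 7.03 and 6.63 in WFPA cells and 5.92, 7.20 and 5.68 in EV cells, and rose by 2.62 (standard error 0.289, limma adjusted p = 0.000386). TOX, a nuclear factor of T cell exhaustion, fell by 1.73 (standard error 0.194, limma adjusted p = 0.00041). Its means were 8.27, 10.4 and 9.61 in WWOX, WFPA and EV cells. The chemokine gene CXCL8 fell by 1.27 (standard error 0.0871, limma adjusted p = 1.97e-05), with means of 7.1, 8.73 and 8.0 in the same order. For CXCL8 the difference of WWOX cells to EV cells was -0.90, under 2-fold. WFPA cells differed from EV cells by 0.74 in CXCL8 (limma adjusted p = 0.00312) and by 0.79 in TOX (limma adjusted p = 0.0774), both under 2-fold. The dimmer probe set of CXCL8 had a difference of -0.55 and was not called, while those of ENPP2 and TOX were called at 1.11 and -1.54. At the dimmer TOX probe set WFPA cells differed from EV cells by 0.95 (limma adjusted p = 0.000882), under 2-fold. The proto-oncogene MYC, named after its values were seen because 4 other targets had larger differences, fell by 1.08 (standard error 0.123, limma adjusted p = 0.000458). The called targets thus split by direction.

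**Figure D4:**
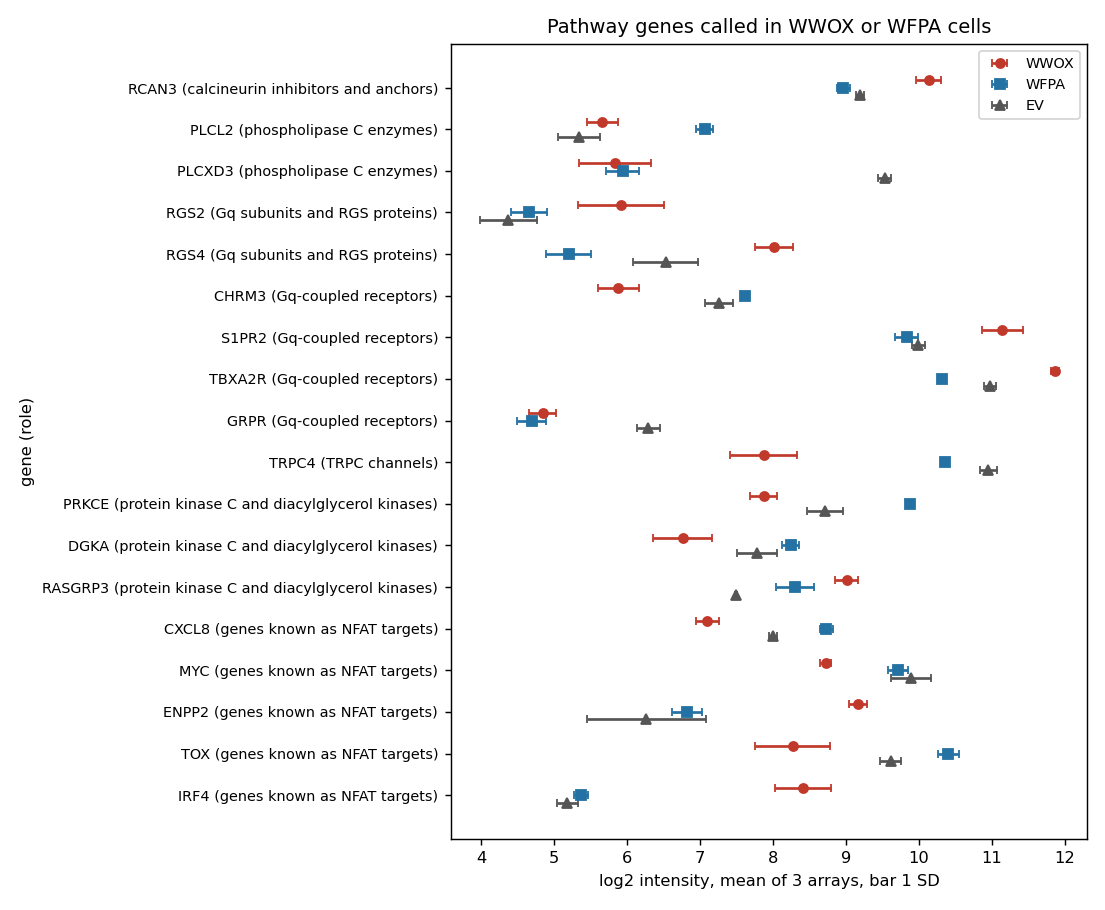
Mean log2 intensity (x axis, bars of 1 SD, n = 3 arrays) of the 18 called genes of the pathway list, each at its brightest probe set (y axis, with their role) in WWOX, WFPA and EV cells. IRF4 and ENPP2 sit at 8.41 and 9.16 in WWOX cells, right of both other groups, TRPC4 at 7.87, left of both, and PLCXD3 is high in EV cells alone, at 9.53.

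NFATC2 and PLCB4 both lie on chromosome 20, and the 5 genes with a probe set on either side of each, leaving out PLCB1 as 1 of the 10 genes chosen, were read in the order of RefSeq (GRCh38.p14). Of the 10 around NFATC2, 1 was called higher in WWOX cells and 0 lower, beside 1.94% and 2.06% of all genes. The genes next to NFATC2, KCNG1 and ATP9A, had differences of 0.07 and 0.57 (limma adjusted p = 0.731 and 0.00206), and BCAS4, at the far end of the 5 on its side, was 1.32 higher (standard error 0.169, limma adjusted p = 0.000942). BCAS4 had means of 9.41, 7.65 and 8.54 in WWOX, WFPA and EV cells. It stood above EV cells by 0.88 in WWOX cells, under 2-fold, and WFPA cells differed from EV cells by -0.88 (limma adjusted p = 0.0297). Of the 10 around PLCB4, again 1 was called higher and 0 lower, beside the same shares of all genes. TMX4, on the far side of PLCB1, was 1.11 higher (standard error 0.0843, limma adjusted p = 3.69e-05), and LAMP5 and PAK5, the next genes beyond PLCB4, had differences of 0.01 and 0.06.

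**Figure D5:**
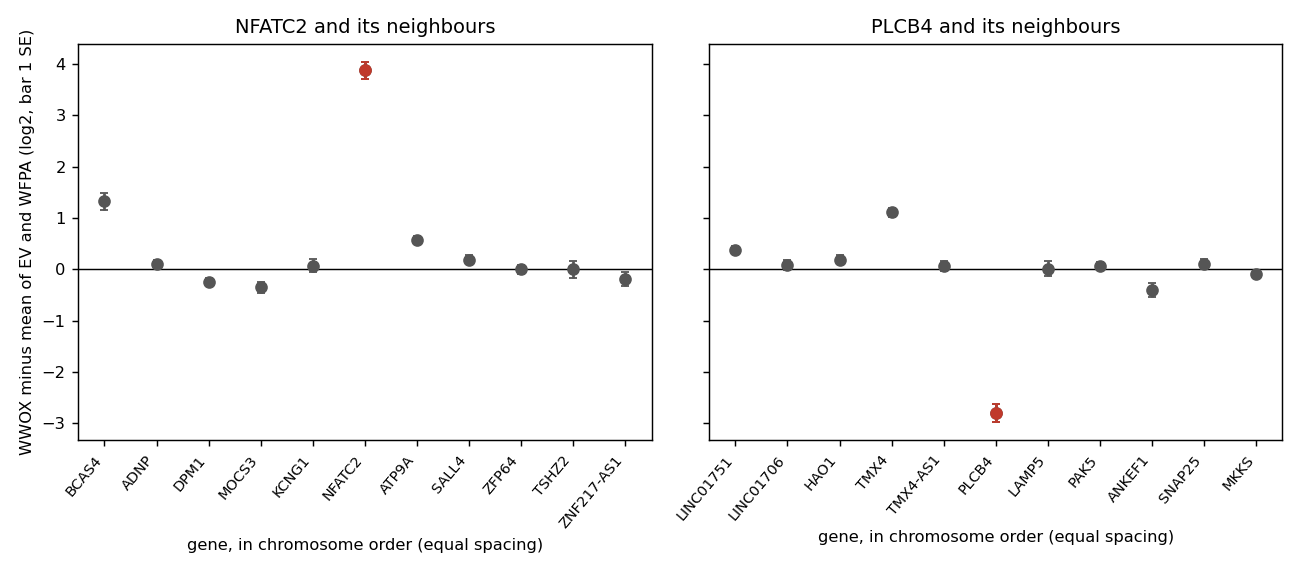
Difference of WWOX cells to the mean of EV and WFPA cells (y axis, log2, bars of 1 standard error) for NFATC2, PLCB4 and their neighbours in chromosome order at equal spacing (x axis). The 2 chosen genes, in red, stand at 3.87 and -2.80, and the neighbours lie closer to 0, with BCAS4 at 1.32 and TMX4 at 1.11.

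Genes with a pattern most like that of NFATC2 and PLCB4 were listed by Pearson correlation over the 9 arrays, among 769 genes that span at least 2 on the log2 scale. All these genes share the same arrays and groups, and the values are a description. Closest to NFATC2 were TRIB2 (r = 0.9955), MGP (r = 0.9919), KCNE4 (r = 0.9916), ST6GAL1 (r = 0.9911) and FABP5 (r = 0.9904). Each had its highest mean in WWOX cells and its lowest in EV cells. Closest to PLCB4 were DNAAF3-AS1 (r = 0.985), CDA (r = 0.9845), LOC105377276 (r = 0.9793), LINC00922 (r = 0.976) and IL13RA2 (r = 0.9753), all with their lowest mean in WWOX cells.

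Markers of the line and of other cells were read beside these results. Of 7 pigment cell markers 3 were called higher in WWOX cells and 0 lower, beside 1.94% and 2.06% of all genes. MITF, the pigment cell regulator, was bright in every group, with means of 13.43, 11.40 and 11.87 in WWOX, WFPA and EV cells. SOX10 had means of 10.55, 5.33 and 4.89 and S100B 12.23, 6.31 and 5.55 in the same order, while MLANA and TYRP1 lay near or under the lower quartile in all groups (4.43, 4.42 and 4.38 for MLANA). PMEL and TYR were not called, with differences of -0.08 and 0.31 (limma adjusted p = 0.697 and 0.173). The mean level of the 7 markers, which moved mainly with the 3 called, was 7.67 to 7.86 on the WWOX arrays. It was 5.83 to 5.92 on the WFPA arrays and 5.71 to 5.79 on the EV arrays, and its part in the NFATC2 and PLCB4 results was not tested. Of 10 T cell markers none was called and 8 lay under the array median on every array, with a mean level of 4.65 to 4.75 on the WWOX arrays, 4.49 to 4.58 on the WFPA arrays and 4.58 to 4.61 on the EV arrays. None of the 4 B cell, 4 monocyte, 5 endothelial and 3 osteoclast markers read was called in WWOX cells.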

How the data were processed

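RNA of 3 groups of stable clones was read on 9 arrays, 3 per group, named by the array titles. The deposited values are log2 intensities that the authors made in Partek Genomics Suite, and the background correction and normalization are not given in the sources used here. No further normalization was applied. Of 54675 probe sets 62 controls were left out, and 54613 were tested. Of these 41091 carry 1 gene, 1801 several and 11721 none. For each gene the brightest probe set, on average of the 9 arrays, was used. One mean per group was fitted in limma 3.58.1 (R 4.3.3), with 6 residual and 3.04 prior degrees of freedom, without covariates. P-values were adjusted by Benjamini-Hochberg over all probe sets, and calls needed an adjusted p under 0.05 and at least 2-fold. The code was tested on simulated data. Figures were made with matplotlib 3.10.9 in Python 3.11.15, from tables read with pandas 2.3.3 and numpy 2.4.6.

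The members and lists were chosen with earlier results of these data known. Genes named are the members, up to 4 called genes of largest change per role, PPP3CB, PPP3R1, RCAN3, PLCB3, GNAQ, GNA11, called neighbours, and for likeness the 5 most correlated genes. Exceptions are marked. Precision is limited by the 3 arrays per group. The alternatives were other variance models, adjustments, fold limits, filters, normalizations, probe set choices, a replicate block and each array left out.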

Additional observations from a re-analysis of the deposited data

How the results depend on the processing

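With Bonferroni adjustment and with a 4-fold limit, the calls between WFPA and EV cells among the 33 probe sets fell to 0 higher, from 1, and without a fold limit there were 3 higher and 1 lower. In the pathway list, the 8 genes called higher in WWOX cells became 2 with Bonferroni adjustment, 3 at 4-fold and 24 without a fold limit, and the 8 called lower became 4, 1 and 21. Between WFPA and EV cells the 2 called higher became 0, 0 and 7, and 1 with only probe sets above the median level. They became 5 (PLCL2, EDNRB, TRPC6, PRKCE and GPC6) where each gene was read by its probe set of highest variance. The 3 called lower became 1, 1 and 8. Of the neighbours called higher, 2 became 1 with Bonferroni adjustment, 0 at 4-fold and 4 without a fold limit. The WWOX gene kept its difference of 1.72 but lost its call with Bonferroni adjustment (adjusted p = 0.213) and at 4-fold.

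With each array left out in turn, the 33 probe sets gave 1 called higher each time and 0 to 1 called lower in WFPA against EV cells, the 1 being NFAT5 215092_s_at without EV replicate 3. The probe sets at least 2-fold lower in WWOX than in WFPA cells ranged from 1 to 2, and the added one was NFATC3 210555_s_at, at -1.04 or -1.02, without WWOX replicate 1 or without WFPA replicate 1. Those at least 2-fold lower in WWOX than in EV cells ranged from 2 to 3. The added one was PLCB4 203896_s_at, whose difference ranged from -1.16 to -0.83. Quantile normalization also gave 3. The pathway genes called in WWOX cells ranged from 8 to 10 higher and 8 to 9 lower, and those in WFPA against EV cells from 2 to 3 either way.

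The replicate numbers showed no sign of pairing the arrays. The deviations of same-numbered arrays correlated with -0.05 to 0.03, those of other numbers with -0.09 to 0.08, and none passed 0.1. With 3 arrays per group a weak pairing could be missed. With the replicate number as a block, 1 of the 33 probe sets was called higher and 0 lower in WFPA against EV cells, 8 pathway genes were called higher and 8 lower in WWOX cells, 2 higher and 3 lower in WFPA cells, and 2 neighbours higher. The WWOX difference was 1.72 (limma adjusted p = 0.000553).

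Of 55 single-gene results tested, in 1027 comparisons with an alternative, 986 kept their side of the threshold and their direction if called, 37 lost a call, 4 gained one and 0 turned a called direction. A further count of 13 differences without a call changed sign. The 66 differences of the members to WWOX cells, which were not tested, moved by less than 1 SD in all 726 comparisons. The cause of these changes was not tested.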
